A study of Mus musculus with 10 samples.

Results

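Cirbp and Rbm3 encode the cold-inducible RNA-binding proteins of mammals, and both genes were followed here in cortical projection neurons of the mouse, with and without Cdk7. They were taken by gene name, as 2 of the 55573 genes in the deposited table, both passing the filter on low counts, and they were proposed with their values in these libraries already known. Their levels, the difference between the genotypes and the degree to which they moved together are therefore given as a description, without a test. Cirbp RNA was higher in the Cdk7-deficient libraries, with all 5 above every control library, whereas Rbm3 RNA had the same mean in both genotypes. Markers of other cell types were lower in the Cdk7-deficient libraries. Their part in the difference of Cirbp cannot be told apart from an effect of genotype.

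RNA was polyA-selected from EYFP-positive cells sorted from cortices of pups on postnatal day 3, which had been dissected in ice-cold buffer, and each of the 10 libraries came from 1 pup. The 5 Cdk7_KO pups were NexCre/+;Cdk7lox/lox, R26EYFP/+, and the 5 Ctrl pups were NexCre/+;Cdk7+/+, R26EYFP/+. Both groups thus carried the R26EYFP reporter and NexCre, in which the Neurod6 locus drives Cre. This directs fluorescence, and deletion in the Cdk7lox/lox pups, to glutamatergic neurons of the dorsal forebrain from an early stage. The comparison asks what changes in the RNA of these neurons without CDK7, a kinase that activates cell-cycle CDKs and, within TFIIH, phosphorylates RNA polymerase II.

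CIRBP and RBM3 are small proteins with an RNA recognition motif at the N-terminus and a disordered C-terminus rich in arginine and glycine. Mild cooling raises their RNA and protein in most mammalian cells, and warming lowers them. They bind many mRNAs and affect their stability, polyadenylation and translation. In the mouse brain, RBM3 is known for its part in the regrowth of synapses after cooling, and CIRBP for its action on mRNAs of the circadian clock.

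The relatedness of the genes is shown by a stretch of their coding sequences, bases 91 to 210 of transcripts Cirbp-202 and Rbm3-203, which lies in the part that encodes the RNA recognition motif. Capitals mark the 36 of 120 positions at which they differ, and the letters come from the GENCODE M21 transcripts (GRCm38).
Cirbp: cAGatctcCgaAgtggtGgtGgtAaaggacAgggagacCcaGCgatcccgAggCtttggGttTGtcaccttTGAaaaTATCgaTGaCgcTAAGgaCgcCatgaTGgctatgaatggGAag
Rbm3: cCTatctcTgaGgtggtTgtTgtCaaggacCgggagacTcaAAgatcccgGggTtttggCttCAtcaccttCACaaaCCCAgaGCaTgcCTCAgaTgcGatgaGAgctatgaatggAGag
Over the whole coding sequences, 516 bases in Cirbp and 462 in Rbm3 without the stop codon, 73.3% of 450 aligned bases were identical. The longest run of identical bases was 11, so the genes are no near-identical copies of each other. The processed pseudogene Rbm3-ps on chromosome 1 is such a copy of Rbm3, with 99.4% of 462 coding bases identical, and reads may be lost from Rbm3 or divided between them. Rbm3-ps itself had between 3 and 20 counts per library.

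Cirbp (ENSMUSG00000045193) lies on the forward strand of chromosome 10 from 80165985 to 80172786 in GRCm38. GENCODE M21 lists 7 transcripts for it, of which 2 are coding, 1 is a target of nonsense-mediated decay and 4 retain an intron. Rbm3 (ENSMUSG00000031167) lies on the reverse strand of the X chromosome from 8138975 to 8145880, with 11 transcripts, 6 of them coding and 2 subject to nonsense-mediated decay. The counts cover whole genes and do not separate these forms. The antisense gene Rbm3os overlaps the 5′ end of Rbm3 and had between 2 and 23 counts per library, against 6206 to 8910 counts for Rbm3. Whether the counting used strand is not given in the sources used, so reads of the pair may not be separated.

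RefSeq (GRCm38.p6) gave 2 promoter windows of 300 bases for Cirbp. In the first, the 189 bases ahead of the start of Cirbp-202 are shown because they hold the element through which mild cold is reported to act on mouse Cirbp, with that element and the CCAAT boxes in capitals.
Cirbp, chr10:80167589-80167777, forward strand: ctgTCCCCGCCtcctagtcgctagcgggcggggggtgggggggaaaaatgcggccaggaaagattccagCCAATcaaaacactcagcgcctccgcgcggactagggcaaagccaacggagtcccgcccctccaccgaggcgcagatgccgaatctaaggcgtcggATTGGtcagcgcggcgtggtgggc
The mild-cold responsive element TCCCCGCC, searched on both strands, ended 179 bases before the transcript start. It was present in 5.38% of 32817 RefSeq promoter windows of 300 bases. CCAAT boxes (CCAAT, 2 matches, both strands) were present in 37.4% of the windows, and GC boxes (GGGCGG, 3 matches in the whole first window) in 35.6%. The first window held no TATA box (TATAAA), which 13.6% of windows hold, no E-box of the CLOCK-binding form (CACGTG, 7.15%) and no cAMP response element (TGACGTCA, 1.79%). The second window, from 80167921 to 80168220, held 0 matches to the mild-cold responsive element, 0 CCAAT boxes and 4 GC boxes.

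Total counts per library lay between 23497621 and 31233466. Cdk7 was checked first and averaged 5.16 ± 1.30 CPM (the count over the library total, on the usual CPM scale) in Cdk7_KO and 15.7 ± 4.00 CPM in Ctrl (SD, n = 5 each), without overlap. Its log2 fold change was -1.54 (SE 0.22), with a two-sided exact permutation p of 0.00794, the lowest possible with 252 assignments, while the adjusted p over all genes was 0.161 in edgeR and 2.41e-08 in DESeq2. By Xist and Y-linked Ddx3y, 3 Cdk7_KO and 2 Ctrl libraries were male, and 2 Cdk7_KO and 3 Ctrl libraries female. The male libraries are those numbered 1 to 3 and the female ones those numbered 4 to 6, and an effect of sex cannot be told apart from one of preparation. The 10 markers of projection neurons were all measured and summed to between 1909.8 and 2541 CPM in Cdk7_KO and between 1617 and 2397 CPM in Ctrl. Markers of other cells were present in every library and lower in Cdk7_KO, as described below.

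Cirbp was at 313.7, 311.6, 274.6, 300.4 and 256.1 CPM in Cdk7_KO replicates 1 to 5, and at 251.3, 240.3, 249.5, 229.8 and 234.2 CPM in Ctrl replicates 1, 3, 4, 5 and 6. Every Cdk7_KO library lay above every Ctrl library, although Cdk7_KO replicate 5 exceeded the highest Ctrl library by only a few CPM. The mean was 291.3 ± 25.1 CPM in Cdk7_KO and 241.0 ± 9.34 CPM in Ctrl (SD, n = 5 each). Of 15578 genes tested, 0.61% were higher in Cdk7_KO without overlap and 2.41% were lower without overlap. These shares are given as background, since Cirbp was chosen with this contrast known.

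Fitted across all genes, the log2 fold change of Cirbp was 0.33 (SE 0.07), a 1.25-fold difference. The median over all genes tested was 0.01, and 24.4% of them had a larger absolute log2 fold change. Leaving out the TMM factors shifted all genes by a median of -0.05 on the log2 scale, and the value for Cirbp was then 0.27. The replicates spread more in Cdk7_KO than in Ctrl, with coefficients of variation of 8.61% in Cdk7_KO and 3.88% in Ctrl, while counting error at the lowest count of 5904 was 1.30%.

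Rbm3 was at 251.5, 271.2, 286.6, 276.3 and 255.3 CPM in Cdk7_KO replicates 1 to 5, and at 310.7, 285.3, 256.5, 247.5 and 241.2 CPM in Ctrl replicates 1, 3, 4, 5 and 6. The groups overlapped widely, with both the highest and the lowest library in Ctrl. The mean was 268.2 ± 14.6 CPM in Cdk7_KO and 268.2 ± 29.1 CPM in Ctrl (SD, n = 5 each). The log2 fold change was 0.05 (SE 0.08), and 79.8% of all genes tested had a larger absolute value. In Rbm3 the wider spread was in Ctrl, with coefficients of variation of 5.46% in Cdk7_KO and 10.9% in Ctrl.

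**Figure D1:**
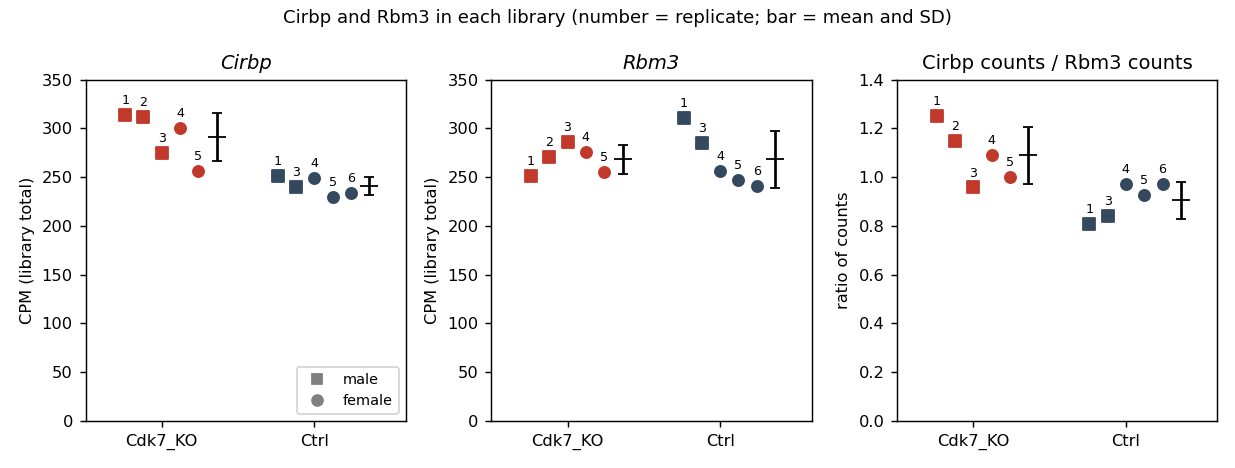
Levels of Cirbp and Rbm3 in CPM, and the ratio of their counts, in each library, with Cdk7_KO on the left and Ctrl on the right of each panel. Squares are male and circles female libraries, numbers are replicates, and bars give the mean and SD (n = 5 each). Cirbp lies between 256.1 and 313.7 CPM in Cdk7_KO and between 229.8 and 251.3 CPM in Ctrl, while the ranges of Rbm3 overlap.

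Both genes were abundant in these libraries. Per kilobase of annotated exon, Cirbp averaged 111.9 ± 9.63 CPM in Cdk7_KO and 92.6 ± 3.59 CPM in Ctrl, and Rbm3 57.1 ± 3.12 CPM in Cdk7_KO and 57.1 ± 6.20 CPM in Ctrl (SD, n = 5 each). On this scale Cirbp stood above 97.8% and Rbm3 above 95.1% of the genes tested. The exon lengths, 2604 bases for Cirbp and 4698 for Rbm3, include retained introns and alternative ends, so the difference in level between the genes depends on which forms are expressed.

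The ratio of Cirbp to Rbm3 counts does not depend on how libraries are scaled. It was 1.25, 1.15, 0.958, 1.09 and 1.00 in Cdk7_KO replicates 1 to 5, against 0.809, 0.842, 0.973, 0.928 and 0.971 in Ctrl replicates 1, 3, 4, 5 and 6. Cdk7_KO replicate 3 lay within the range of Ctrl, and the other 4 Cdk7_KO libraries lay above it. The mean ratio was 1.09 ± 0.115 in Cdk7_KO and 0.905 ± 0.0753 in Ctrl (SD, n = 5 each).

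Within each sex, Cirbp was higher in Cdk7_KO without overlap, which follows from the lack of overlap over all 10 libraries and adds no support. Male libraries averaged 299.97 CPM in Cdk7_KO (n = 3) and 245.8 CPM in Ctrl (n = 2), and the female ones 278.3 CPM in Cdk7_KO (n = 2) and 237.8 CPM in Ctrl (n = 3). The log2 fold change was 0.30 (SE 0.09) in males and 0.32 (SE 0.10) in females. Their difference, female minus male, was 0.01 (SE 0.14), given as a description.

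For the X-linked Rbm3 the values in the sexes had opposite signs. Male libraries averaged 269.8 CPM in Cdk7_KO and 298.0 CPM in Ctrl, a log2 fold change of -0.13 (SE 0.08), and female libraries 265.8 CPM in Cdk7_KO and 248.4 CPM in Ctrl, a log2 fold change of 0.19 (SE 0.08). In both sets 1 Cdk7_KO library lay within the Ctrl range. The difference of 0.32 (SE 0.11), female minus male, is likewise a description. Over all 15578 genes, edgeR called such an interaction in 7.34% at an unadjusted p under 0.05 and in 0% at an adjusted one (also 0% with voom). Among Ctrl libraries the male ones (310.7 and 285.3 CPM) lay above the female ones (256.5, 247.5 and 241.2 CPM), a difference that was not tested, and among Cdk7_KO libraries the sexes overlapped.

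**Figure D2:**
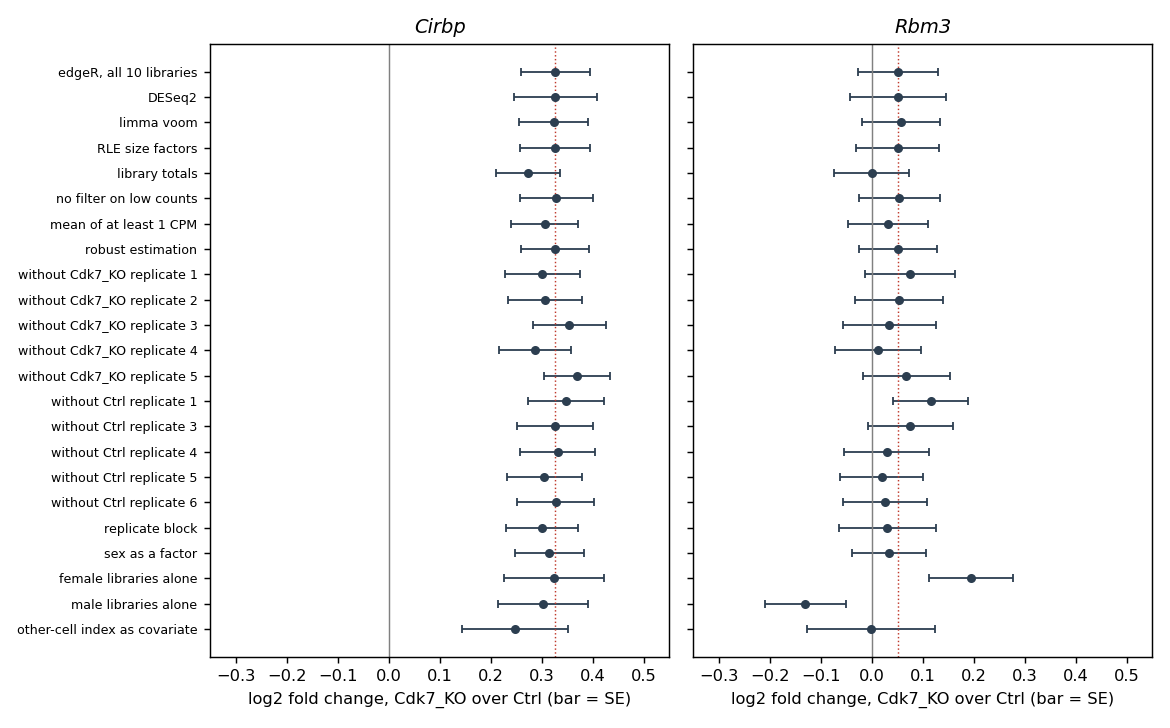
Log2 fold change (Cdk7_KO over Ctrl, bar = SE) of Cirbp and Rbm3 in the fit over all 10 libraries, at the top, and under 22 alternatives below it; the dotted line marks the value over all libraries. Cirbp lies between 0.25 and 0.37 in all of them, and Rbm3 between -0.13 (males alone) and 0.19 (females alone). The positive sign of Cirbp in subsets of libraries follows from the lack of overlap and adds no support.

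The genes did not track each other closely from library to library. After the mean of each genotype was subtracted, Pearson's r between their log2 CPM values was 0.31 and Spearman's rho 0.25 over the 10 libraries, and the deviations had the same sign in 5 of 10. Both values are descriptive, and all libraries share the scaling that the totals impose. Without Cdk7_KO replicates 3 and 5, the libraries farthest from the median of Cirbp, r was 0.47. Leaving out 1 library at a time gave an r between 0.20 (without Ctrl replicate 5) and 0.56 (without Cdk7_KO replicate 1). In CPM, Cdk7_KO replicate 1 had the highest Cirbp level and the lowest Rbm3 level of its group, and Ctrl replicate 1 was the highest of its group in both genes.

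**Figure D3:**
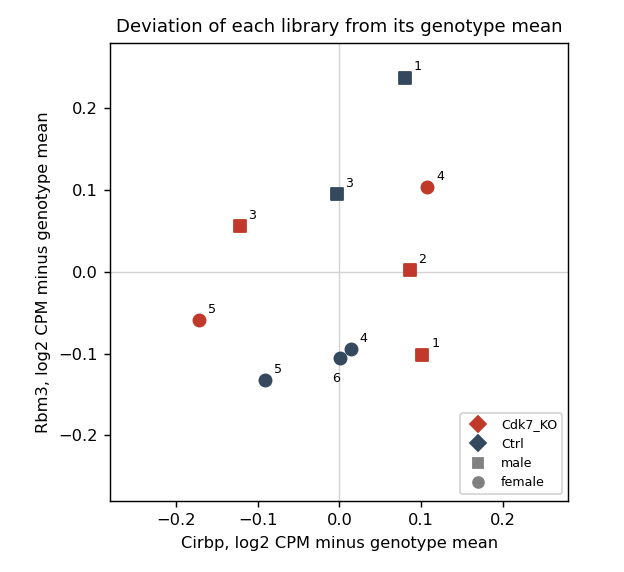
Deviation of each library from its genotype mean in log2 CPM (TMM-scaled), Cirbp on the horizontal and Rbm3 on the vertical axis; colour gives genotype, shape sex and number the replicate. The points scatter over all quadrants, with a Pearson r of 0.31 over 10 libraries.

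Many other genes followed each member more closely. By the same centred correlation over the 10 libraries, among 10644 genes with a mean of at least 5 CPM, Rbm3 stood at rank 1791 in likeness to Cirbp and Cirbp at rank 3073 in likeness to Rbm3. The genes most like Cirbp were Sh2d3c (r = 0.94), an adaptor with an SH2 domain, Thap4 (0.93), Stx6 (0.92), a SNARE of the trans-Golgi network, Alg5 (0.89), a glucosyltransferase of the glycosylation pathway, and Ifitm2 (0.88). Those named for Rbm3 were the Arf GTPase-activating protein gene Acap3 (0.94), Pald1 (0.93), the small GTPase gene Ralb (0.93) and the scaffold gene Slc9a3r2 (0.93). No gene appears in both lists, but with lists this short among 10644 genes this says little. Over 14 alternatives these values lay between 0.79 and 0.98 for Cirbp and between 0.83 and 0.98 for Rbm3. They are among the highest of 10644 genes over few libraries and are given as a description.

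The tested neighbours of the members on their chromosomes did not pass the edgeR test, and neither did any other of the 15578 genes tested. Midn, a gene 7616 bases ahead of Cirbp that encodes a ubiquitin-like adaptor of the proteasome, was at 313.9 ± 51.3 CPM in Cdk7_KO and 314.1 ± 34.8 CPM in Ctrl (SD, n = 5 each), with a log2 fold change of 0.05 (SE 0.12, edgeR adjusted p = 0.876). On the other side, 1600002K03Rik, 157 bases from the end of Cirbp, was at 1.95 CPM in Cdk7_KO and 2.07 CPM in Ctrl (log2 fold change -0.03, SE 0.28, edgeR adjusted p = 0.97). Next to Rbm3 on the X chromosome, Wdr13 had a log2 fold change of 0.15 (SE 0.09, edgeR adjusted p = 0.445), and Tbc1d25, a Rab GTPase-activating protein gene, one of 0.10 (SE 0.11, edgeR adjusted p = 0.704). The antisense gene Rbm3os averaged 0.518 CPM in Cdk7_KO and 0.316 CPM in Ctrl and was too low to be tested.

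Genes reported to act on Cirbp or Rbm3 differed little between the genotypes. Of 15 such genes 13 were tested, 8 with a positive and 5 with a negative log2 fold change (52.5% of all genes were positive). Their median was 0.05 against 0.01 over all genes (-0.01 and 6 positive when scaled by library totals instead of TMM). edgeR called 0 of them and 0% of all 15578 genes at an adjusted p under 0.05. DESeq2 called 0 of them, and 3.24% of 17299 genes, 0.225% as higher and 3.02% as lower. At an unadjusted p under 0.05, 2 were higher and 0 lower, against 4.9% higher and 10.5% lower over all genes. These were Prmt1, an arginine methyltransferase that modifies CIRBP, at 387.0 ± 11.2 CPM in Cdk7_KO and 363.7 ± 18.6 CPM in Ctrl (log2 fold change 0.14, edgeR adjusted p = 0.256), and Csnk2a1, a catalytic subunit of casein kinase 2, at 0.12 (edgeR adjusted p = 0.3). Plcg1, a phospholipase downstream of the neurotrophin receptor TrkB, followed at 0.09 (edgeR adjusted p = 0.489).

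For 3 genes of that list the values are given for their role, chosen after the values were seen. Hnrnph1, whose product acts on a poison exon of Rbm3, was at 620.3 ± 13.2 CPM in Cdk7_KO and 615.8 ± 12.8 CPM in Ctrl (log2 fold change 0.06, edgeR adjusted p = 0.545). Sp1, whose product is reported to bind the mild-cold responsive element, was at 33.3 ± 1.69 CPM in Cdk7_KO and 37.1 ± 4.90 CPM in Ctrl (log2 fold change -0.10, edgeR adjusted p = 0.649). Ntrk2, the gene of TrkB, through which cooling is reported to induce RBM3 in mouse neurons, was at 371.8 ± 41.7 CPM in Cdk7_KO and 439.7 ± 82.8 CPM in Ctrl (log2 fold change -0.19, edgeR adjusted p = 0.511).

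Genes named as targets of the proteins, or as receptors of extracellular CIRBP, had a median log2 fold change of -0.45. Of 8 tested members 2 were positive, against 52.5% of all genes. The tested members with the highest levels, Rtn3, Txn1, Sema3a and Rpa2, were at 0.10, -0.08, 0.11 and -0.14. The others, Tlr4 (-1.04) and the genes named next, had lower levels. edgeR and DESeq2 called 0 of the 8. At an unadjusted p under 0.05, where 10.5% of all genes were lower, 2 were lower. These were Igf2bp2, which encodes an mRNA-binding partner of RBM3, at 2.55 ± 0.462 CPM in Cdk7_KO and 4.48 ± 1.57 CPM in Ctrl (log2 fold change -0.76, but 0.0475 in male libraries alone, edgeR adjusted p = 0.21), and the Hippo pathway effector gene Yap1 at -1.18 (edgeR adjusted p = 0.21). The growth factor gene Igf2 averaged 0.337 CPM in Cdk7_KO and 1.10 CPM in Ctrl (log2 fold change -1.67, SE 0.89, edgeR adjusted p = 0.395). With sex as a factor in the model, edgeR called 4.7% of all genes (0.295% higher and 4.4% lower), Yap1 among the lower ones.

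Of 22 circadian clock genes tested, 5 had a positive and 17 a negative log2 fold change, against 52.5% positive over all genes. The median of the 22 was -0.09 (-0.14 and 2 positive with library totals). edgeR called 0, and 2 were higher and 3 lower at an unadjusted p under 0.05 (4.9% and 10.5% of all genes). The transcriptional repressor gene Bhlhe40 was at 15.2 ± 4.93 CPM in Cdk7_KO and 25.7 ± 6.32 CPM in Ctrl (log2 fold change -0.71, edgeR adjusted p = 0.192), and DESeq2 called it lower (DESeq2 adjusted p = 0.0481). Per3 was at -0.73 and Csnk1e, a kinase of the PER proteins, at 0.15 on the log2 scale, and neither passed (edgeR adjusted p = 0.272 and 0.243).

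The wider RBM family, named for RNA-binding motif proteins, gave 36 tested members besides Rbm3. Their median log2 fold change was 0.06 and 22 were positive, against 52.5% of all genes. With library totals the median was 0.01 and 20 were positive. No tested member exceeded Cirbp in the positive direction, the highest being at 0.21, while 6 had an absolute value at least as large. edgeR called 0, with 1 higher and 3 lower at an unadjusted p under 0.05 (4.9% and 10.5% of all genes). Rbm20, a splicing regulator best known from heart muscle, was at 0.780 ± 0.436 CPM in Cdk7_KO and 2.37 ± 0.768 CPM in Ctrl, without overlap (log2 fold change -1.54, edgeR adjusted p = 0.165, DESeq2 adjusted p = 0.0146). Over all genes, 2.41% were lower in Cdk7_KO without overlap. Rbms1 was at -0.69 (edgeR adjusted p = 0.192) and the spliceosome gene Rbm22 at 0.16 (edgeR adjusted p = 0.279). With sex as a factor, edgeR called Rbms1 lower.

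Stress granule and cold shock domain genes had a median log2 fold change of 0.08. Of 17 tested members 14 were positive, against 52.5% of all genes. With library totals the median was 0.03 and 11 were positive. None was called by edgeR or DESeq2, and 1 was higher at an unadjusted p under 0.05 (4.9% of all genes). Csdc2, which has a cold shock domain, was at 191.5 ± 13.96 CPM in Cdk7_KO and 181.4 ± 7.44 CPM in Ctrl (log2 fold change 0.13), and the stress granule gene G3bp2 at 442.6 ± 38.8 CPM in Cdk7_KO and 415.5 ± 26.2 CPM in Ctrl (log2 fold change 0.15); neither passed (edgeR adjusted p = 0.347 and 0.407).

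Heat shock genes, some of which respond to temperature in the opposite direction to the members, had a median of 0.04 over 20 tested genes. Of these 12 were positive, against 52.5% of all genes (-0.01 and 8 positive with library totals). Among the 8 negative ones were Hspa1a (-0.49), Hspa1b (-0.50), Hspb1 (-1.51) and Cryab (-0.55), all at low levels. edgeR and DESeq2 called 0 of the 20, and 1 was higher and 3 lower at an unadjusted p under 0.05 (4.9% and 10.5% of all genes). Serpinh1, a collagen chaperone gene, was at 30.9 ± 10.5 CPM in Cdk7_KO and 72.7 ± 39.4 CPM in Ctrl, without overlap (log2 fold change -1.20, edgeR adjusted p = 0.167), and edgeR called it lower with sex as a factor. Among all genes tested, 2.41% were lower in Cdk7_KO without overlap. Bag3 (-0.97) and Hspa4l (-0.29), both chaperone genes, did not pass (edgeR adjusted p = 0.246 and 0.285).

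**Figure D4:**
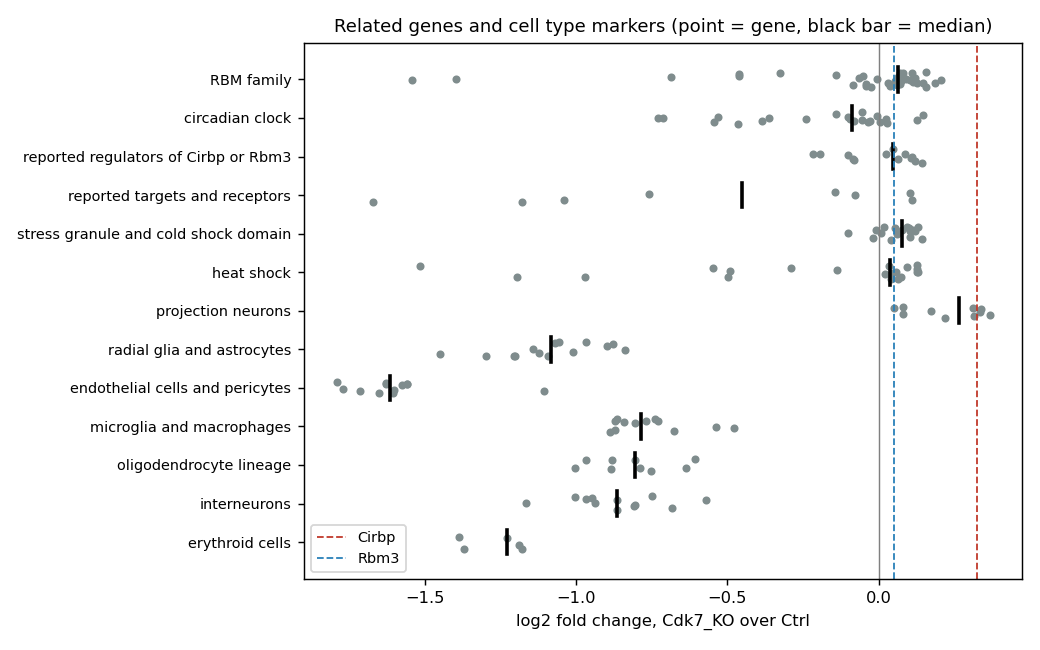
Log2 fold change (Cdk7_KO over Ctrl) of each tested gene in the 13 lists, with the median of each list as a black bar and the values of Cirbp (0.33) and Rbm3 (0.05) as dashed lines. All points of the pathway lists lie below Cirbp, which was chosen with its value known, and 3 of the 10 projection neuron markers lie above it. The markers of cells other than projection neurons lie below 0.

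Markers of other cell types were lower in Cdk7_KO beside the difference in Cirbp. In bulk RNA, fewer cells of a type and less RNA per cell cannot be told apart. The 14 markers of radial glia and astrocytes, all negative with a median of -1.08, summed to between 240.7 and 1043.8 CPM in Cdk7_KO and between 986.4 and 1808 CPM in Ctrl. Those of endothelial cells and pericytes, 12 of 12 negative with a median of -1.62, summed to between 69.9 and 324.5 CPM in Cdk7_KO and between 236.6 and 1433 CPM in Ctrl. In the 4 other lists every tested member was negative as well. Microglia and macrophage markers (12, median -0.79) summed to between 83.3 and 259.9 CPM in Cdk7_KO and between 164.3 and 491.5 CPM in Ctrl. Those of the oligodendrocyte lineage (9 of 10 tested, median -0.81) summed to between 221.5 and 644.4 CPM in Cdk7_KO and between 363.1 and 1105.5 CPM in Ctrl. Those of interneurons (12, median -0.86) summed to between 28.3 and 289.1 CPM in Cdk7_KO and between 93.5 and 421.7 CPM in Ctrl, and those of erythroid cells (5, median -1.23) to between 34.7 and 89.4 CPM in Cdk7_KO and between 82.0 and 199.8 CPM in Ctrl. The summed ranges overlapped between the genotypes in each of the 6 lists, and 0 of the markers were at 0 counts. edgeR called none of them over all libraries, DESeq2 called 4 radial glial, 4 erythroid and 1 oligodendrocyte marker lower, and with sex as a factor edgeR called 11 radial glial, 9 vascular, 1 oligodendrocyte and 2 erythroid markers lower. The shares of all genes called lower were 3.02% in DESeq2 and 4.4% in edgeR with sex as a factor.

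Named examples were Notch1 (-1.01) and Vim (-1.14) of radial glia, Flt1 (-1.79) and Rgs5 (-1.60) of vessels, and C1qa (-0.89) and Csf1r (-0.87) of microglia. Cnp (-0.97) and Cspg4 (-0.88) stood for the oligodendrocyte lineage, Maf (-1.003) and Dlx5 (-1.17, but 0.39 in male libraries alone) for interneurons, and Hba-a1 (-1.39) and Hba-a2 (-1.37), which are near-identical copies, for erythroid cells. None of the 12 passed in edgeR over all libraries (edgeR adjusted p from 0.161 to 0.347). DESeq2 called Notch1, Vim, Cnp, Hba-a1 and Hba-a2 lower. With sex as a factor, edgeR called these and also Flt1 and Rgs5 lower. Projection neuron markers were all positive (9 of 10 with library totals), with a median of 0.27, Neurod6, which holds the driver, at 0.34 and Tbr1 at 0.37 (edgeR adjusted p = 0.211 and 0.277). Both were called higher with sex as a factor.

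An index of 4 of these lists (radial glia and astrocytes, vessels, microglia, oligodendrocytes) did not overlap between the genotypes, at -1.68 to 0.15 in Cdk7_KO and 0.25 to 1.00 in Ctrl. With the index as a covariate the log2 fold change was 0.25 (SE 0.10) for Cirbp and -0.0021 (SE 0.13) for Rbm3. As the index also takes up genotype, the part of other cells in the difference of Cirbp and the effect of genotype cannot be told apart in this fit.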

How the data were processed

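The authors deposited 1 table of raw, whole-number counts by gene and library (10 libraries). The submitters' processing notes name STAR, Salmon and GRCm38. Their versions, the step that counted reads and its strand setting are not given. Libraries were directional, per the labels. All count columns were matched to a sample by name (0 left over), and 55480 of 55573 gene IDs matched GENCODE M21. No library was a copy of another (chi-square per gene at least 8.53 in every pair).

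The main test was edgeR 4.0.16 (R 4.3.3): filterByExpr by group (minimum count 10), TMM, genotype alone, quasi-likelihood F test, Benjamini-Hochberg adjustment over 15578 genes, threshold 0.05. Fold changes are Cdk7_KO over Ctrl, with standard errors from the F statistic. DESeq2 1.42.0, which gave no adjusted p for 38274 genes, and limma 3.58.1 (voom) were alternatives, beside other scalings and filters, omission of 1 library at a time, a block on replicate number, sex and the other-cell index. The tests were tried on simulated counts. Log2 CPM for correlations used TMM factors and a prior count of 2. CPM use library totals.

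The members, lists and tests were chosen with earlier results of these data known. Named were Cdk7, the members, the 5 genes most like each, up to 3 genes with the smallest p of each pathway list and up to 2 of each cell type list, and the nearest genes with a mean of at least 1 CPM or overlapping the members; 2 genes under this rule are not reported here. The index is the mean of 4 scaled list scores.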

Additional observations from a re-analysis of the deposited data

Results flagged for a closer look

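Among 108 groups of 5 libraries checked (named genes and the Cirbp to Rbm3 ratio), 3 had a library far from the other 4, where chance alone flags about 1 in 20, and none concerned Cirbp, Rbm3 or their ratio. Slc9a3r2, one of the genes most like Rbm3, was at 54.2 CPM in Ctrl replicate 1, against a Ctrl median of 25.3 CPM. That library also had the highest Rbm3 level of all 10. Per3 was at 2.33 CPM in Ctrl replicate 6, against a Ctrl median of 3.55 CPM. Csf1r was at 123.1 CPM in Ctrl replicate 3, against a Ctrl median of 44.9 CPM.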

How the results depend on the processing

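The log2 fold change of Cirbp was positive under all 22 alternatives (0.25 to 0.37), and between 0.29 and 0.37 without any 1 library. As every Cdk7_KO library lay above every Ctrl library, a positive sign in subsets of libraries follows and adds no support. For Rbm3 the log2 fold change lay between 0.01 and 0.12 without any 1 library. It moved to 0.19 in female and -0.13 in male libraries alone. The centred correlation lay between 0.20 and 0.56 in 15 alternatives. The interaction of Cirbp with sex, near 0, reversed to -0.0612 with library totals and ranged from -0.12 to 0.14 without any 1 library. edgeR's 0 calls between genotypes became 561 in DESeq2, 1 without a filter, 732 with sex as a factor and between 0 and 5 without any 1 library, and the 0 list members called became 11 in DESeq2, 28 with sex as a factor and between 0 and 1 without any 1 library (5 genes and 1 list member without Cdk7_KO replicate 1). The cause was not tested. The replicate numbers do not pair the libraries (correlations of deviations -0.10, 0.31, 0.14 and 0.17 for numbers 1, 3, 4 and 5; 0 of 4 correlated best with their own number). With the replicate block edgeR called 5 genes and 1 list member, and the log2 fold changes were 0.30 for Cirbp and 0.03 for Rbm3.

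Of 1019 alternative values of 50 named genes, 24 became stronger, passing a threshold that the main fit did not pass, and 17 reversed. Among the stronger ones were, with DESeq2, Cdk7, Rbm20, Bhlhe40, Notch1, Vim, Cnp, Hba-a1 and Hba-a2. With the index as covariate the reversed ones were C1qa (0.27), Csf1r (0.31), Cnp (0.01), Maf (0.32), Plcg1 (-0.029), Midn (-0.0163), Tbc1d25 (-0.0366) and Hnrnph1 (-0.008). C1qa, Csf1r and Cnp belong to lists from which the index is built, so their reversal follows in part from its construction. In male libraries alone the reversed genes were Igf2bp2 (0.0475), Dlx5 (0.39) and 1600002K03Rik (0.51), and with library totals Midn (-0.0014). Without any 1 library Midn ranged from -0.0258 to 0.1173 and 1600002K03Rik from -0.1525 to 0.1047.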
